A study of Mus musculus with 12 samples.

Results

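The genes described here encode the structural extracellular matrix: collagen chains, laminin chains and nidogen, lysyl oxidases, elastic fibre proteins, matricellular proteins and small proteoglycans. They were chosen by name, from the gene symbols that the platform annotation gives to the array's probe sets: symbols of the Col, Lam, Lox, Fbln, Fbn, Thbs and Tnc or Tnx series, plus Postn, Sparc, Lum, Dcn, Bgn, Eln, Thy1 and Nid1. Of 10949 genes with a probe set of their own, 61 carried such a symbol, on 80 probe sets. A gene with several probe sets was read from the one whose mean over the 12 arrays was highest. Dcn, Col2a1, Col6a1, Fbn1, Thbs1, Loxl1, Loxl2 and Tnxb were not analysed here.

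Whole ovaries were taken from female mice aged 23 weeks that were in diestrus, a quiet stage of the cycle. The control group held 6 bioreplicates of genotype Pgrcre/+, without tumor. The tumor groups held 3 bioreplicates of stage I and 3 of stage II, all of genotype Pgrcre/+PgrBLsL/+. Every group carried the Pgrcre allele, a Cre allele named for the progesterone receptor gene Pgr, so the effect of that allele itself is in all groups alike. Allele and tumor cannot be told apart, because no array held an ovary with PgrBLsL and without a tumor stage, and how the stages were assigned is not given in the sources used here.

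Collagen chains assemble as trimers. Fibrillar collagens such as types I, III and V form the load-bearing fibres of the stroma, and type VI forms beaded filaments between them. Basement membranes, the thin sheets beneath epithelia and around vessels, muscle cells and ovarian follicles, are built from a laminin network of alpha, beta and gamma chains and a collagen IV network, which nidogen links. In the ovary the follicle wall, the theca, the vessels and the surface each have such a sheet, and the stroma and capsule are rich in fibrillar collagen.

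Signal was deposited as log2 values, so a difference of 1 is a doubling. Values ran from 2.69 to 14.4, array medians from 7.09 to 7.15, and correlations between arrays from 0.966 to 0.997. Pgr measured 3.74 to 4.60 in controls, 9.05 to 9.28 in stage I and 9.78 to 10.09 in stage II, in the order of the labels. Inha, the inhibin alpha gene of granulosa cells, was at 12.15 or above on every array, a level in keeping with the ovary label. Ovgp1, a gene of the oviduct epithelium, ran from 6.16 to 12.7 within the control group, and so was far from even over the dissected ovaries. A probe set's level depends on its own probes, so levels are compared between arrays and never between genes.

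In stage II ovaries the matrix genes moved in both directions. Of 61 members, 12 were higher and 17 lower than in controls, which is 47.5% called, where the share called over all genes was 21.0%. Over all genes, 9.81% were called higher and 11.2% lower. The calls divided in part by role: laminins, nidogen and collagen IV chains held 9 of the 12 that rose. Fibrillar and beaded collagens held 8 of the 17 that fell. Of 11 laminin and nidogen genes 6 rose and 2 fell, and of 8 basement membrane and network collagens 3 rose and 1 fell. Of 9 fibrillar collagens 5 fell, and of 4 beaded and anchoring collagens 3 fell, with 0 rises in both. An unadjusted p of 0.05 was passed by 37 members, against 33.6% of all genes, and for 28 members the stage II and control arrays did not overlap, against 22.0% of all genes. The median difference over the members was -0.04, against -0.01 over all genes, and the members ran from -1.59 (Tnc) to 1.53 (Lama5). Calls rest on limma's moderated test over all 12 arrays with Benjamini-Hochberg adjustment over all 10949 genes, at an adjusted p of 0.05, and errors of differences are standard errors of that fit. In RNA from whole ovaries, fewer cells of a type and less RNA per cell cannot be told apart.

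**Figure D1:**
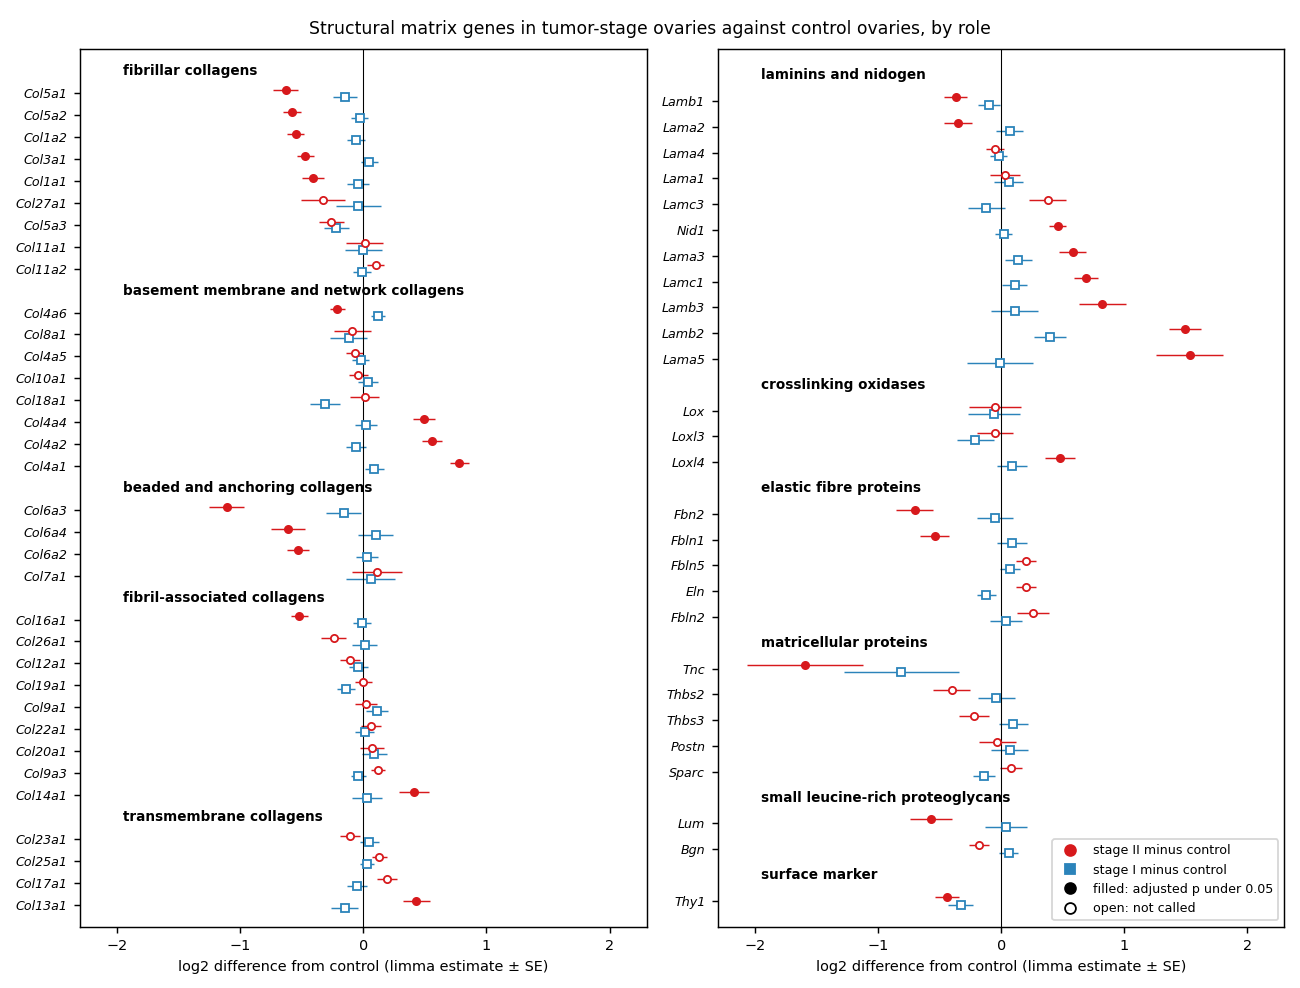
Log2 difference from control for each of the 61 genes, grouped by role, with stage II as red circles and stage I as blue squares. Points are limma estimates with standard errors, and filled points passed an adjusted p of 0.05. The red points spread from -1.59 to 1.53, with filled points on both sides, and every blue point is open.

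RefSeq sequence (GRCm38.p6) upstream of the annotated start was at hand for 43 of the 61 genes, 21 of them among the 29 called. The 4 sequences below are the 250 bases before the start of Lama5 and Lamb2, the largest rises, and of Tnc and Col6a3, the largest falls, 5′ to 3′ on the gene's strand. Capitals mark matches, on either strand, to TGTTCT (a hexamer bound by progesterone and glucocorticoid receptors), GGGCGG (the Sp1-type GC box), CCAAT and TATAAA. The windows lie at chr2:180225860-180226109 (Lama5, minus strand), chr9:108479612-108479861 (Lamb2, plus strand), chr4:64047016-64047265 (Tnc, minus strand) and chr1:90843972-90844221 (Col6a3, minus strand).
Lama5: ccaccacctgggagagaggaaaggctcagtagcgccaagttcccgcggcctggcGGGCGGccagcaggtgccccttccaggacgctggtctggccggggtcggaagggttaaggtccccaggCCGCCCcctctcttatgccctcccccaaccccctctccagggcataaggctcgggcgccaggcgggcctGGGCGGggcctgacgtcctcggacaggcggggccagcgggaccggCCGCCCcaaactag
Lamb2: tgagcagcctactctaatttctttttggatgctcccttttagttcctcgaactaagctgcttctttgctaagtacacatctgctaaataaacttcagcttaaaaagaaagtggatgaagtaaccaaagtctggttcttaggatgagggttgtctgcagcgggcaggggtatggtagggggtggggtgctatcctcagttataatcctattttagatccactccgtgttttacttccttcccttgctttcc
Tnc: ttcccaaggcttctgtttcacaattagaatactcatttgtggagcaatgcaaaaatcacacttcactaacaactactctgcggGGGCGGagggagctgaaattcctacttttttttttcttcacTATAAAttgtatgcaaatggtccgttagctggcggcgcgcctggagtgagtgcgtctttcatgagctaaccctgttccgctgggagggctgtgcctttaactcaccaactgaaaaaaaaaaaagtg
Col6a3: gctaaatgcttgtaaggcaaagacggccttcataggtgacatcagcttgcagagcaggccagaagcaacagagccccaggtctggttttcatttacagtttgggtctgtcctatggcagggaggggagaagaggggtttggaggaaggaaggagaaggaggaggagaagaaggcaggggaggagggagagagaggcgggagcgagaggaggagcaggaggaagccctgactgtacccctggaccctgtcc
The windows differ in composition. Lama5 is 72.4% G or C with 4 GC boxes, Lamb2 is 43.6% with none of the 4 motifs, Tnc is 44.8% with 1 GC box and 1 TATAAA, and Col6a3 is 57.2% with none. Of the 9 windows of genes that rose, 0 held TGTTCT, of the 12 that fell 2 did, and of the 22 not called 4 did, where 16.2% of all 27025 promoters in the same table hold it. A GC box stood in 4 of 9, 8 of 12 and 14 of 22 windows, against 32.9% of all promoters. CCAAT stood in 3, 4 and 10 windows (34.5% of all), and TATAAA in 1, 2 and 4 (13.0% of all). The median G or C content was 68.8%, 56.2% and 58.2% in these groups and 52.0% over all promoters. A match is a run of letters, not a binding site.

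Laminins and nidogen held the largest rises. Of 11 measured members, Lama3, Lama5, Lamb2, Lamb3, Lamc1 and Nid1 rose, Lama2 and Lamb1 fell, and Lama1, Lama4 and Lamc3 were not called. Lama5, the alpha chain of mature vascular and epithelial basement membranes, ran from 7.19 to 8.06 in controls with a median of 7.44, measured 7.84, 7.33 and 7.49 in stage I, and reached 8.73, 8.72 and 9.82 in stage II. Its rise in stage II was 1.53 ± 0.27, or 2.88-fold (adjusted p = 0.00191), and every stage II array lay above the controls, replicate 3 by far the highest. Lamb2, a beta chain that can pair with Lama5 in those membranes, measured 8.39 to 8.64 in controls (median 8.48), 9.38, 8.69 and 8.64 in stage I, and 9.96, 10.05 and 9.97 in stage II. That was a rise of 1.49 ± 0.13, or 2.81-fold (adjusted p = 1.15e-05), with the stage II arrays close together. Lamc1, the gamma chain shared by most laminins, was at 9.02 to 9.23 in controls (median 9.15), 9.24, 9.25 and 9.24 in stage I, and 9.60, 9.72 and 10.15 in stage II. Lamc1 rose by 0.69 ± 0.10, or 1.61-fold (adjusted p = 0.000552), again with replicate 3 highest. Nid1, which links the laminin and collagen IV networks, measured 11.07 to 11.26 in controls (median 11.23), 11.20, 11.19 and 11.23 in stage I, and 11.77, 11.67 and 11.52 in stage II. Its rise was 0.46 ± 0.07 (adjusted p = 0.000562), and here replicate 1 was highest.

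The laminin chains of epithelial anchorage also rose. Lama3 measured 5.71 to 6.24 in controls (median 6.00), 6.23, 6.04 and 6.01 in stage I, and 6.55, 6.63 and 6.43 in stage II, a rise of 0.58 ± 0.11 (adjusted p = 0.00337). Lamb3, its partner in the anchoring laminin of stratified epithelia, sat low, at 4.09 to 4.42 in controls (median 4.31), 4.43, 4.51 and 4.22 in stage I, and 4.80, 4.72 and 5.76 in stage II. Lamb3 rose by 0.82 ± 0.19 (adjusted p = 0.00989), and by 0.49 without stage II replicate 3, which alone stood above 5. Probe sets this dim may be near background, which these files do not record. Lamb1, the beta chain of embryonic and many adult laminins, went the other way from Lamb2. Lamb1 measured 11.13 to 11.53 in controls (median 11.39), 11.19, 11.28 and 11.32 in stage I, and 10.98, 11.07 and 10.95 in stage II, a fall of 0.37 ± 0.09 (1.29-fold, adjusted p = 0.011). Without stage II replicate 3 the Lamb1 call was lost (adjusted p = 0.0568). Lama2, the alpha chain of muscle and nerve basement membranes, measured 9.62 to 9.96 in controls (median 9.81), 9.99, 9.84 and 9.78 in stage I, and 9.61, 9.54 and 9.21 in stage II. It fell by 0.35 ± 0.11 (adjusted p = 0.0412), a call lost without any of control replicates 2, 3 and 6, stage I replicates 2 and 3, or stage II replicates 2 and 3. The difference without stage II replicate 3 was -0.22, and the adjusted p reached 0.232. Lamc3, the least common gamma chain, measured 7.28, 6.83 and 7.39 in stage II against 6.53 to 7.11 in controls, a difference of 0.38 ± 0.15 (adjusted p = 0.0958). Lama1 and Lama4, alpha chains of embryonic and of vascular membranes, differed by 0.03 and -0.05.

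Among collagens of basement membranes and networks, 3 of 8 rose and 1 fell. Col4a1 and Col4a2 encode the chains of the common collagen IV trimer and lie head to head on chromosome 8, with annotated starts 21 bases apart. Col4a1 measured 10.58 to 10.82 in controls (median 10.76), 10.80, 10.86 and 10.84 in stage I, and 11.42, 11.40 and 11.73 in stage II, a rise of 0.78 ± 0.08 or 1.71-fold (adjusted p = 3.13e-05). Col4a2 measured 10.83 to 10.98 in controls (median 10.92), 10.81, 10.87 and 10.87 in stage I, and 11.33, 11.40 and 11.70 in stage II, a rise of 0.56 ± 0.08 or 1.48-fold (adjusted p = 0.000339). For both genes the stage II arrays stood clear of the other 9, and replicate 3 was highest. Col4a4, a chain of the specialised collagen IV of kidney filters and other sites, measured 6.32 to 6.61 in controls (median 6.55), 6.58, 6.33 and 6.62 in stage I, and 7.05, 7.04 and 6.84 in stage II. It rose by 0.49 ± 0.09, or 1.40-fold (adjusted p = 0.00333). Col4a6, which joins Col4a5 in smooth muscle and epithelial membranes, measured 7.5 to 7.57 in controls (median 7.54), 7.74, 7.5 and 7.73 in stage I, and 7.34, 7.38 and 7.26 in stage II. Its fall was small, 0.21 ± 0.06 or 1.16-fold (adjusted p = 0.0309), and was lost without any of control replicates 2, 5 and 6 or stage II replicates 1 and 3, with differences from -0.24 to -0.18 when 1 array was left out. Col4a5, Col8a1, Col10a1 and Col18a1 (the source of endostatin) differed by -0.09 to 0.01 and were not called.

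Among fibrillar collagens 5 of 9 were lower in stage II and 0 were higher, with a median difference of -0.41 over the 9. Col1a2, a chain of type I collagen, measured 11.21 to 11.42 in controls (median 11.31), 11.30, 11.25 and 11.23 in stage I, and 10.71, 10.89 and 10.70 in stage II, a fall of 0.55 ± 0.07 or 1.46-fold (adjusted p = 0.000143). Its partner Col1a1 measured 8.02 to 8.29 in controls (median 8.07), 7.90, 8.08 and 8.25 in stage I, and 7.65, 7.65 and 7.84 in stage II, a fall of 0.41 ± 0.09 (adjusted p = 0.00734). Col3a1, the sole chain of type III collagen, measured 12.60 to 12.80 in controls (median 12.70), 12.69, 12.80 and 12.77 in stage I, and 12.29, 12.34 and 12.09 in stage II. It fell by 0.47 ± 0.07 (adjusted p = 0.000489), and in none of these 3 genes did stage II overlap the controls or stage I. Type V collagen nucleates and limits the width of type I fibrils. Its chains Col5a1 and Col5a2 had the lowest estimates of the 9, close to that of Col1a2, and differences between chains were not tested. A second Col5a1 probe set fell by 0.40. Col5a1 measured 9.06 to 9.39 in controls (median 9.28), 8.86, 9.27 and 9.18 in stage I, and 8.56, 8.72 and 8.60 in stage II, a fall of 0.63 ± 0.10 or 1.54-fold (adjusted p = 0.000899). Col5a2 measured 10.23 to 10.50 in controls (median 10.42), 10.37, 10.38 and 10.35 in stage I, and 9.69, 9.88 and 9.87 in stage II, a fall of 0.58 ± 0.07 or 1.5-fold (adjusted p = 0.000111). The other fibrillar chains were not called. Col5a3 differed by -0.26 ± 0.10 (adjusted p = 0.0911), Col27a1 by -0.33 ± 0.18, and the cartilage collagens Col11a1 and Col11a2 by 0.01 and 0.10.

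Beaded collagen VI chains fell as well, at 3 of 4 genes in the beaded and anchoring group. Col6a3, the long chain of the collagen VI filament, measured 11.19 to 11.73 in controls (median 11.48), 11.08, 11.51 and 11.30 in stage I, and 10.34, 10.66 and 10.04 in stage II. Its fall of 1.11 ± 0.14, or 2.16-fold (adjusted p = 0.000212), was the largest of the measured collagens, and the control and stage II arrays did not overlap. Col6a2 measured 9.35 to 9.64 in controls (median 9.55), 9.32, 9.66 and 9.66 in stage I, and 8.94, 9.06 and 8.95 in stage II, a fall of 0.53 ± 0.09 (adjusted p = 0.00175). Col6a4, a chain that can take the place of Col6a3 in mouse, measured 9.32 to 9.83 in controls (median 9.58), 9.94, 9.60 and 9.47 in stage I, and 9.08, 9.10 and 8.70 in stage II. Col6a4 fell by 0.61 ± 0.14 (adjusted p = 0.0104), and without stage II replicate 3 by 0.48 with the call lost (adjusted p = 0.0724). Col7a1, which forms the anchoring fibrils of stratified epithelia, ran from 6.59 to 7.61 over all arrays and differed by 0.11 ± 0.20.

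**Figure D2:**
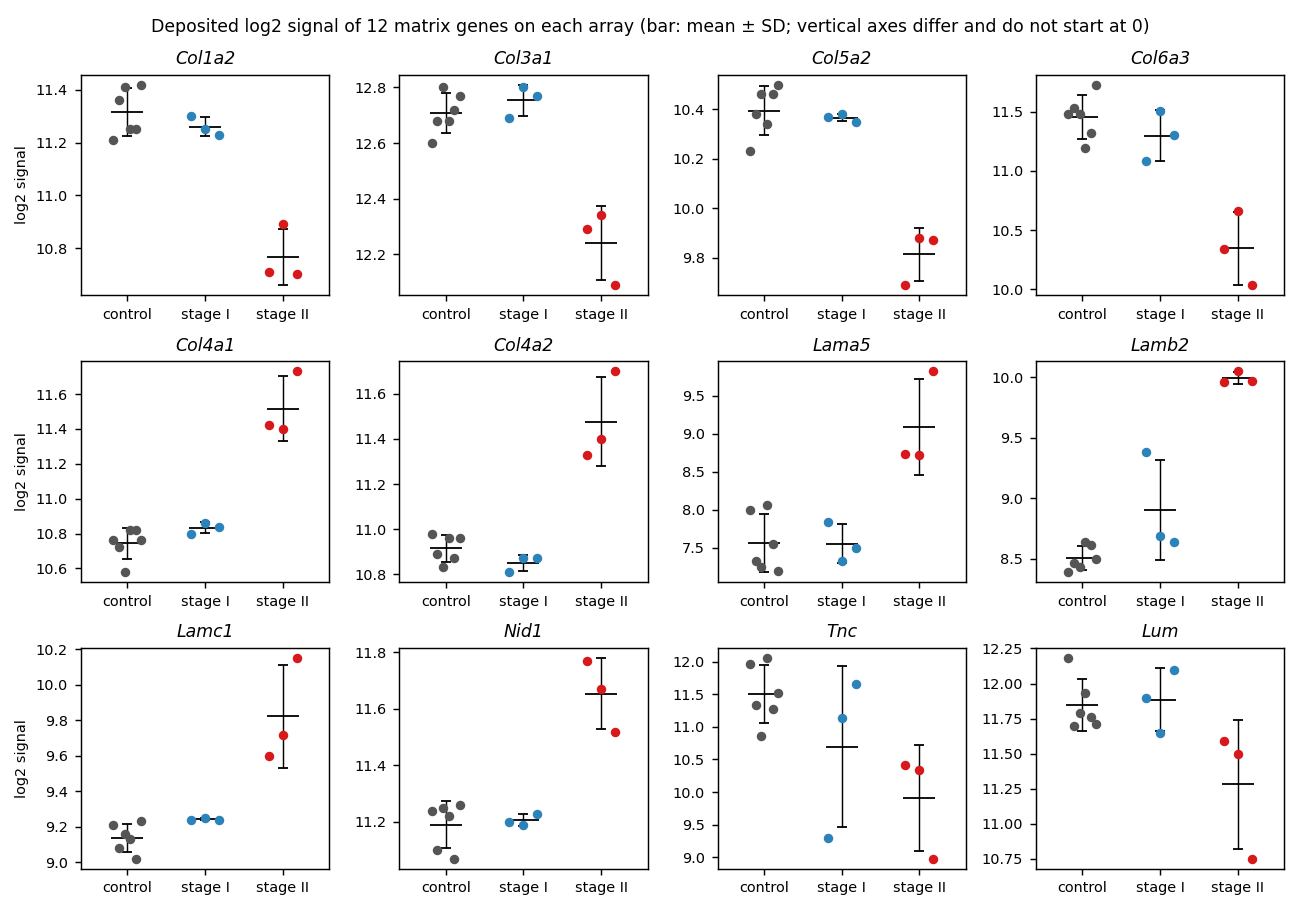
Deposited log2 signal of 12 matrix genes on each array, with controls in grey, stage I in blue and stage II in red, and bars for the mean ± SD. Vertical axes differ and do not start at 0. Collagens I, III, V and VI lie lowest in stage II, collagen IV, Lama5, Lamb2, Lamc1 and Nid1 lie highest there, and stage I sits among or near the controls except for 1 array at 9.38 for Lamb2 and 1 at 9.30 for Tnc.

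Collagens that decorate fibrils or span the membrane mostly stayed uncalled. Of 9 in the fibril-associated group, in which Col26a1 was counted although it is not of that class, 1 rose and 1 fell. Col16a1, which binds fibrils and microfibrils, measured 8.47 to 8.64 in controls (median 8.54), 8.5, 8.5 and 8.58 in stage I, and 7.94, 8.22 and 7.90 in stage II, a fall of 0.52 ± 0.07 (adjusted p = 0.000447). Col14a1, which regulates fibril growth, measured 6.25 to 6.53 in controls (median 6.37), 6.22, 6.44 and 6.58 in stage I, and 6.92, 6.5 and 6.98 in stage II. Its rise of 0.41 ± 0.12 (adjusted p = 0.0249) came with overlapping groups and was lost without stage II replicate 1 or 3, with differences down to 0.33. The other 7 differed by -0.24 to 0.12. Of 4 transmembrane collagens Col13a1, found at cell junctions, rose: it measured 6.31 to 6.75 in controls (median 6.49), 6.23, 6.34 and 6.46 in stage I, and 7.18, 6.75 and 6.85 in stage II. The difference was 0.43 ± 0.11 (adjusted p = 0.0193) and fell to 0.31 without stage II replicate 1, where the call was lost (adjusted p = 0.0975). Col17a1, Col23a1 and Col25a1 differed by -0.11 to 0.19.

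Lysyl oxidases crosslink collagen and elastin, and 1 of the 3 measured was called. Loxl4 measured 5.45 to 5.90 in controls (median 5.68), 5.84, 5.64 and 5.84 in stage I, and 5.95, 6.07 and 6.47 in stage II, a rise of 0.48 ± 0.12 (adjusted p = 0.0133). Without stage II replicate 3 the rise was 0.33 and not called (adjusted p = 0.0804). Lox and Loxl3 both differed by -0.05, with standard errors of 0.21 and 0.15, and Lox ranged from 9.03 to 9.94 among controls alone.

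Of 5 elastic fibre genes, 2 fell. Fbn2, the fibrillin of developing microfibrils, measured 9.83 to 10.23 in controls (median 10.09), 10.01, 9.93 and 10.05 in stage I, and 9.18, 9.81 and 9.05 in stage II. It fell by 0.70 ± 0.15, or 1.62-fold (adjusted p = 0.00576), with replicate 2 just under the lowest control. Fbln1, a fibulin that binds fibronectin and basement membrane proteins, measured 9.29 to 9.58 in controls (median 9.40), 9.76, 9.33 and 9.41 in stage I, and 9.04, 9.01 and 8.59 in stage II. Its fall was 0.54 ± 0.12, or 1.45-fold (adjusted p = 0.0079). Eln, Fbln2 and Fbln5, the last 2 of which take part in elastin assembly, differed by 0.20 to 0.26 and were not called (lowest adjusted p = 0.112).

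Tnc, the matricellular protein tenascin-C, had the largest fall and the widest spread. It measured 10.86 to 12.05 in controls (median 11.43), 9.30, 11.13 and 11.65 in stage I, and 10.41, 10.34 and 8.98 in stage II. The difference was -1.59 ± 0.47, or 3.02-fold (adjusted p = 0.0323), and the call was lost without any of control replicates 1, 4 and 6 or stage II replicate 3, with differences from -1.84 to -1.13. Postn, Sparc, Thbs2 and Thbs3, which modulate how cells meet the matrix, were not called. Sparc, a collagen-binding glycoprotein, differed by 0.08 ± 0.09, and Thbs2, an inhibitor of vessel growth, by -0.40 ± 0.15 (adjusted p = 0.0752). Lum, the proteoglycan lumican that spaces collagen fibrils, measured 11.70 to 12.18 in controls (median 11.77), 11.90, 11.65 and 12.10 in stage I, and 11.59, 11.50 and 10.75 in stage II. Lum fell by 0.57 ± 0.17 (adjusted p = 0.0375), and by 0.30 without stage II replicate 3, where the call was lost (adjusted p = 0.206). It was also lost without any of control replicates 1, 3, 4 and 5. Bgn, the related proteoglycan biglycan, differed by -0.18 ± 0.08 (adjusted p = 0.136). Thy1, a surface glycoprotein of stromal and immune cells and no matrix protein, measured 7.06 to 7.5 in controls (median 7.31), 6.92, 6.93 and 7.0 in stage I, and 6.78, 6.92 and 6.81 in stage II. It fell by 0.44 ± 0.10 (adjusted p = 0.0104).

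No member of the set of 61 genes passed the threshold in stage I. With limma 0 of 61 members were called, 4 passed an unadjusted p of 0.05 (6.38% of all genes did), and the lowest adjusted p was 0.498, where 0.192% of all genes were called, all of them higher. The differences ran from -0.81 for Tnc to 0.40 for Lamb2. Both ends rest on stage I replicate 1: without it Tnc differed by -0.11 and Lamb2 by 0.17, and the members ran from -0.32 (Thy1) to 0.23 (Col7a1). The Lamb2 value came with a standard error of 0.13, and the stage I array at 9.38 stood far above the other stage I arrays, at 8.69 and 8.64. The same stage I array, replicate 1, was the lowest of its group for Tnc (9.30), Col18a1 (8.58) and Col5a1 (8.86). The stage I arrays did not overlap the controls for Lamb2 and Lamc1, both above, and for Thy1 and Eln, both below, in a table where 3.68% of all genes do not overlap. With 3 stage I arrays, a p above the threshold does not show that the genes stayed level.

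Stage II also differed from stage I, which tests whether the stages depart from control to the same degree. Here 22 of 61 members were called (36.1%, where 12.5% of all genes were called), 9 higher and 13 lower, against 6.54% and 5.97% of all genes. An unadjusted p of 0.05 was passed by 34 members, against 27.2% of all genes, and 37 had arrays that did not overlap between the stages, against 31.6% of all genes. All 22 were among the 29 called against control. They were Col4a1, Col4a2, Col4a4, Col13a1, Lama3, Lama5, Lamb2, Lamc1 and Nid1 on the higher side. Col1a1, Col1a2, Col3a1, Col5a1, Col5a2, Col6a2, Col6a3, Col6a4, Col4a6, Col16a1, Fbln1, Fbn2 and Lama2 were on the lower side. Lama5 rose by 1.54 ± 0.31 (2.90-fold, adjusted p = 0.0088) and Lamb2 by 1.09 ± 0.15 (2.13-fold, adjusted p = 0.0013). Col6a3 fell by 0.95 ± 0.17 (adjusted p = 0.00434), Col3a1 by 0.52 ± 0.08 (adjusted p = 0.002) and Col5a2 by 0.55 ± 0.08 (adjusted p = 0.00147). Tnc, at -0.79 ± 0.54, Lum, at -0.60 ± 0.20, and Thy1, at -0.11 ± 0.12, were not called between the stages.

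Leaving out 1 array at a time ended 10 of these 22 calls, with 5.53% to 14.7% of all genes called. Lama2 (-0.50 to -0.29 over the 12 omissions), Lama3 (0.39 to 0.51), Col1a1 (-0.45 to -0.28) and Fbn2 (-0.88 to -0.50) were lost under 5 or more omissions, among them stage I replicates 2 and 3 for each of these genes. The further arrays were every one but control replicate 4 and stage II replicate 1 for Lama2, control replicates 1 and 6 and all stage II arrays for Lama3, stage II replicates 1 and 2 with control replicates 5 and 6 for Col1a1, and stage I replicate 1 and stage II replicates 1 and 3 for Fbn2. Col5a1 (-0.60 to -0.39) was lost without stage I replicate 2 or 3 or stage II replicate 1 or 3, and Col6a4 (-0.81 to -0.58) without stage I replicate 1 or stage II replicate 3. Col13a1 (0.45 to 0.67) and Col4a4 (0.38 to 0.53) were lost without stage I replicate 2 or stage II replicate 1, Col4a6 (-0.41 to -0.29) without stage I replicate 3, and Fbln1 (-0.71 to -0.48) without stage II replicate 3. The other 12 calls held throughout.

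The stage II arrays were not alike. Replicate 3 was farthest from the control mean for 7 of the 12 genes that rose and 12 of the 17 that fell. Replicate 1 was farthest for 3 and 5, and replicate 2 for 2 and 0. Without replicate 3, 10 members were higher and 11 lower in stage II than in controls, with 10.5% of all genes called, so the count of falls rests partly on that array. Of the 29 calls, 20 held whichever of the 12 arrays was left out: Col1a1, Col1a2, Col3a1, Col5a1, Col5a2, Col6a2, Col6a3, Col16a1, Fbln1, Fbn2 and Thy1 among the falls, and Col4a1, Col4a2, Col4a4, Lama3, Lama5, Lamb2, Lamb3, Lamc1 and Nid1 among the rises. The heat map of called genes shows the array to array differences.

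**Figure D3:**
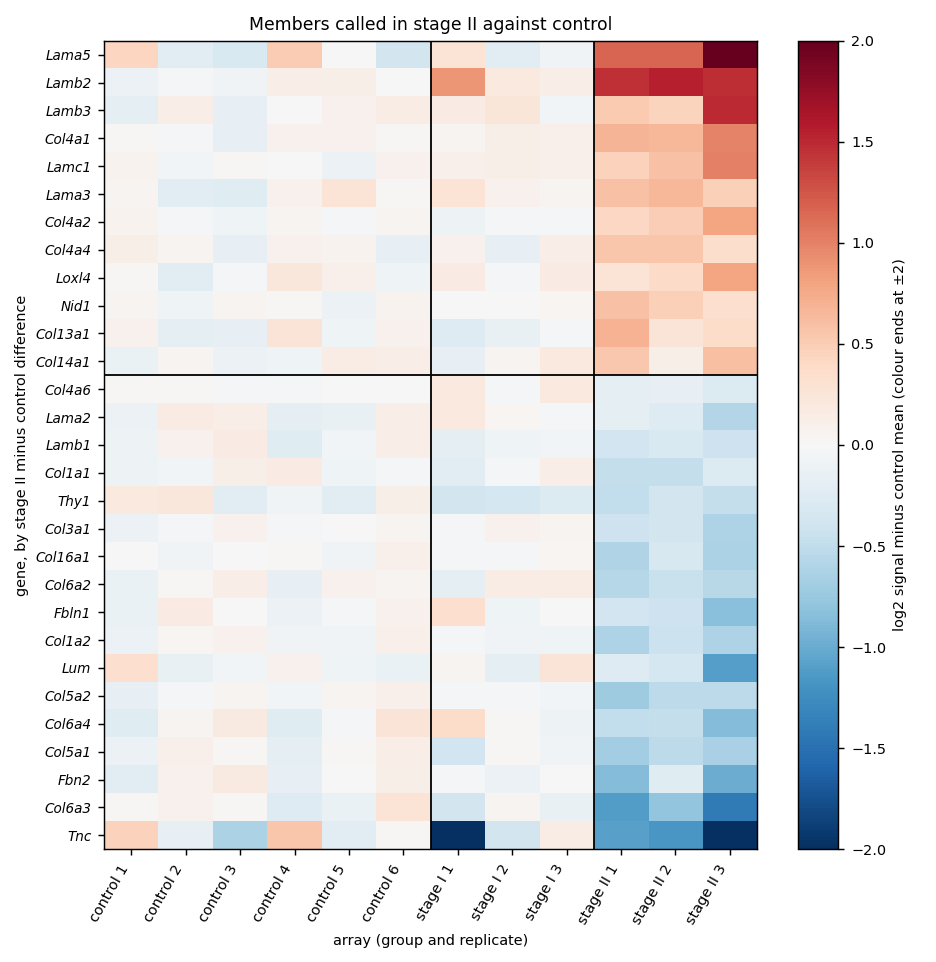
Log2 signal minus the control mean for the 29 genes called in stage II against control, 1 row a gene and 1 column an array, with the genes that rose above the black horizontal line and those that fell below it. Colour ends at a difference of 2 either way. Stage II columns are red above and blue below the line, with the strongest colours mostly in replicate 3, and stage I columns are pale except for replicate 1 at Tnc and Lamb2.

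Of the 61 genes, 17 had several probe sets. Col3a1, Col4a6, Col5a1, Lama5, Lamb1 and Lamc1 each had 2, and both passed in the same direction, with a second difference of 1.15 for Lama5, 1.00 for Lamc1 and -0.40 for Col4a6, Col5a1 and Lamb1. Col14a1 had 2 of which 1 was called (0.41 and 0.10). Probe sets of Col20a1, Col4a5, Eln and Lama4 had opposite signs, none of them called. The probe sets used for Lamb1, Col6a2, Col9a3 and Col20a1 carry suffixes by which the maker marks probes that other transcripts may share.

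Enzymes that modify and process collagen moved in both directions. Of 9 measured genes of collagen modification and processing, 4 were higher and 2 lower in stage II (66.7% called, against 21.0% of all genes). Without stage II replicate 3 the counts were 2 and 2, with 10.5% of all genes called. Plod2, the lysyl hydroxylase that sets crosslink type in collagen tails, fell from 10.97 to 11.15 in controls to between 9.42 and 10.43, a fall of 1.05 ± 0.16 or 2.06-fold (adjusted p = 0.000715). P3h1, a prolyl 3-hydroxylase, fell by 0.51 ± 0.11 (adjusted p = 0.00578). P4ha2, a prolyl 4-hydroxylase subunit, rose by 0.97 ± 0.27 (adjusted p = 0.0262), a call lost without stage II replicate 1 or 3 (adjusted p up to 0.12, differences from 0.81 to 1.09). Tll1, a protease that trims procollagen, rose by 0.56 ± 0.12 (adjusted p = 0.00576) from a low level, 3.69 to 4.01 in controls.

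Other matrix genes were also divided. Of 30 other interstitial glycoproteins and proteoglycans, 4 rose and 5 fell. Without stage II replicate 3, 2 fell (Emilin1 and Ogn) and 4 rose, with Fmod and Spon1 in place of Prelp and Matn3. Over all genes 10.5% were then called. Without control replicate 2 the rises were 2, Fn1 and Vcan, with 17.2% of all genes called. Fn1, fibronectin, on which collagen fibrils are laid down, had the largest change of any matrix gene listed: it ran from 10.17 to 10.40 in controls, 11.28 to 12.78 in stage I and 13.05 to 13.47 in stage II. Fn1 rose by 3.00 ± 0.24, or 8.01-fold, in stage II (adjusted p = 4.52e-06) and by 1.61 ± 0.24 in stage I (adjusted p = 0.0151), the sole call in stage I among the 4 lists of other matrix genes. Vcan, the large proteoglycan versican, rose by 1.30 ± 0.20 (adjusted p = 0.000823). Ogn, a small proteoglycan of collagen fibres, fell by 0.63 ± 0.15 (adjusted p = 0.0129), and by 0.36 without stage II replicate 3. Emilin1, a glycoprotein of elastic fibres, fell by 0.52 ± 0.11 (adjusted p = 0.00487). Among 8 other basement membrane genes 1 rose and 4 fell, or 62.5% called, against 21.0% of all genes. The falls were Sparcl1, Smoc2, Pxdn and Agrn. Sparcl1 fell by 0.60 ± 0.13 (adjusted p = 0.00874), and by 0.36 without stage II replicate 3. Smoc2 fell by 0.58 ± 0.19 (adjusted p = 0.0463), a call lost under 10 of the omissions of 1 array, which left 3 falls. Tinagl1, a laminin- and integrin-binding protein, rose by 1.92 ± 0.14 or 3.77-fold (adjusted p = 2.53e-06), with 7.53 to 7.91 in controls and 9.42 to 9.94 in stage II. Pxdn, the peroxidase that crosslinks collagen IV, fell by 0.54 ± 0.11 (adjusted p = 0.0062), and Agrn, the heparan sulfate proteoglycan agrin, by 0.33 ± 0.07 (adjusted p = 0.00534). Of 14 matrix receptors 4 rose and 1 fell, or 35.7% called, against 21.0% of all genes. Without stage II replicate 3, where 10.5% of all genes were called, 2 rose, since Bcam and Lair1 then lost their calls. Cd36, a thrombospondin receptor and fatty acid transporter, rose by 2.28 ± 0.24 or 4.84-fold (adjusted p = 4.38e-05), Cd47, another thrombospondin receptor, by 0.42 ± 0.08 (adjusted p = 0.00322), and Mrc2, which takes up collagen, fell by 0.47 ± 0.08 (adjusted p = 0.00115).

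Marker levels of several cell types moved beside these genes. For the counts below, 21.0% of all genes were called in stage II against control, 9.81% higher and 11.2% lower. The share was 10.5% without stage II replicate 3, and 10.5% to 22.2% over all omissions of 1 array. The mean log2 level of 8 fibroblast and stroma markers ran from 8.30 to 8.48 in controls and from 7.92 to 8.23 in stage II, with 4 of 8 called lower (1 of them, Mfap5, is also among the interstitial glycoproteins above), and that of the 9 fibrillar collagens from 8.78 to 8.93 and from 8.43 to 8.55. The fibroblast count was 1 of 8, Pdgfra, without stage II replicate 3, as Tcf21, Mfap5 and Fap then lost their calls, and 2 of 8 without any of control replicates 2, 3, 5 and 6. Of 10 smooth muscle and pericyte markers 6 were lower in stage II, with means of 8.89 to 9.04 in controls, 8.68 to 8.81 in stage I and 8.55 to 8.66 in stage II. The 6 were Acta2, Actg2, Cnn1, Tagln, Des and Lmod1, genes of the contractile and muscle cytoskeleton. The count was 5 of 10 without any of control replicates 3, 4 and 5 or stage II replicates 1, 2 and 3. Des (-0.29 ± 0.09, adjusted p = 0.0333) then lost its call. The pericyte markers Rgs5, Cspg4 and Notch3 differed from controls by 0.14, 0.06 and 0.16, and the muscle myosin gene Myh11 by 0.10, none of them called. Against stage I these pericyte markers differed by 0.42, 0.42 and 0.45, and the call for Cspg4 (adjusted p = 0.0182) was lost without stage I replicate 1 or stage II replicate 3. Cnn1 fell by 1.05 ± 0.08 (adjusted p = 2.98e-06). Granulosa cell markers were lower at 5 of 5, from 11.15 to 11.79 in controls and from 9.89 to 11.02 in stage II, with replicate 3 lowest. Without replicate 3 the count was 3 of 5, with Inhba (-1.77, then -1.04) and Inhbb (-0.86, then -0.47) lost and Inha at -0.42 in place of -0.71. Theca and luteal markers ran from 8.91 in stage II replicate 3 to 12.57 in control replicate 4, with 1 of 4 called, and 2 of 4 without stage I replicate 1. The part of these shifts in the falls of the stromal collagens was not tested.

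Beside the rises in laminin and collagen IV, 0 of 7 endothelial markers were called by limma at the adjusted threshold (21.0% of all genes). Of the 7, 1 passed an unadjusted p of 0.05 (33.6% of all genes did). Without control replicate 4 Emcn was called. Their means ran from 7.91 to 8.37 in controls, 7.92 to 8.05 in stage I and 8.23 to 8.42 in stage II, and all 7 differences were above 0. Of 6 epithelial markers Krt8 and Cldn3 rose, while Krt19 differed by 0.96 and Epcam, Krt7 and Cldn4 by -0.67, -0.40 and -0.04, none of these called. The mean of the list ran from 6.84 to 7.99 in controls and from 8.09 to 8.54 in stage II. Cldn3, a tight junction protein, rose by 1.42 ± 0.16 (adjusted p = 6.99e-05). Krt8, a keratin of simple epithelia, rose by 3.59 ± 0.32 (12-fold, adjusted p = 1.04e-05). All 5 macrophage markers rose, where 9.81% of all genes were called higher. Their list means were 8.64 to 9.0 in controls, 8.96 to 9.76 in stage I and 9.60 to 9.91 in stage II. Cd14, a co-receptor for bacterial lipid, rose by 2.50 ± 0.21 (adjusted p = 6.24e-06), and the other 4 by 0.48 to 0.64. The count was 2 of 5, Cd14 and Csf1r, without any of control replicates 1, 2 and 4 or stage II replicates 1 and 3, and 3 of 5 without control replicate 3 or stage II replicate 2. Under omissions of 1 array, 10.5% to 22.2% of all genes were called. Oviduct markers spanned 4.97 to 7.09 in controls and 4.96 to 6.62 in stage II with 0 of 4 called. Mesothelial markers spanned 7.96 to 9.20 and 8.74 to 9.50 with 0 of 2 called. Of these, Wt1 was called lower without control replicate 4, and Krt19 is also in the epithelial list. Adipocyte markers spanned 6.70 to 8.25 and 7.48 to 7.74 with 1 of 4 each way. Adipoq fell by 3.34 ± 0.66, or 10.1-fold (adjusted p = 0.00421), and Fabp4 rose by 2.47 ± 0.45, or 5.54-fold (adjusted p = 0.00256). Lep and Pparg were not called. The part of these cell types in the rises was not tested.

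**Figure D4:**
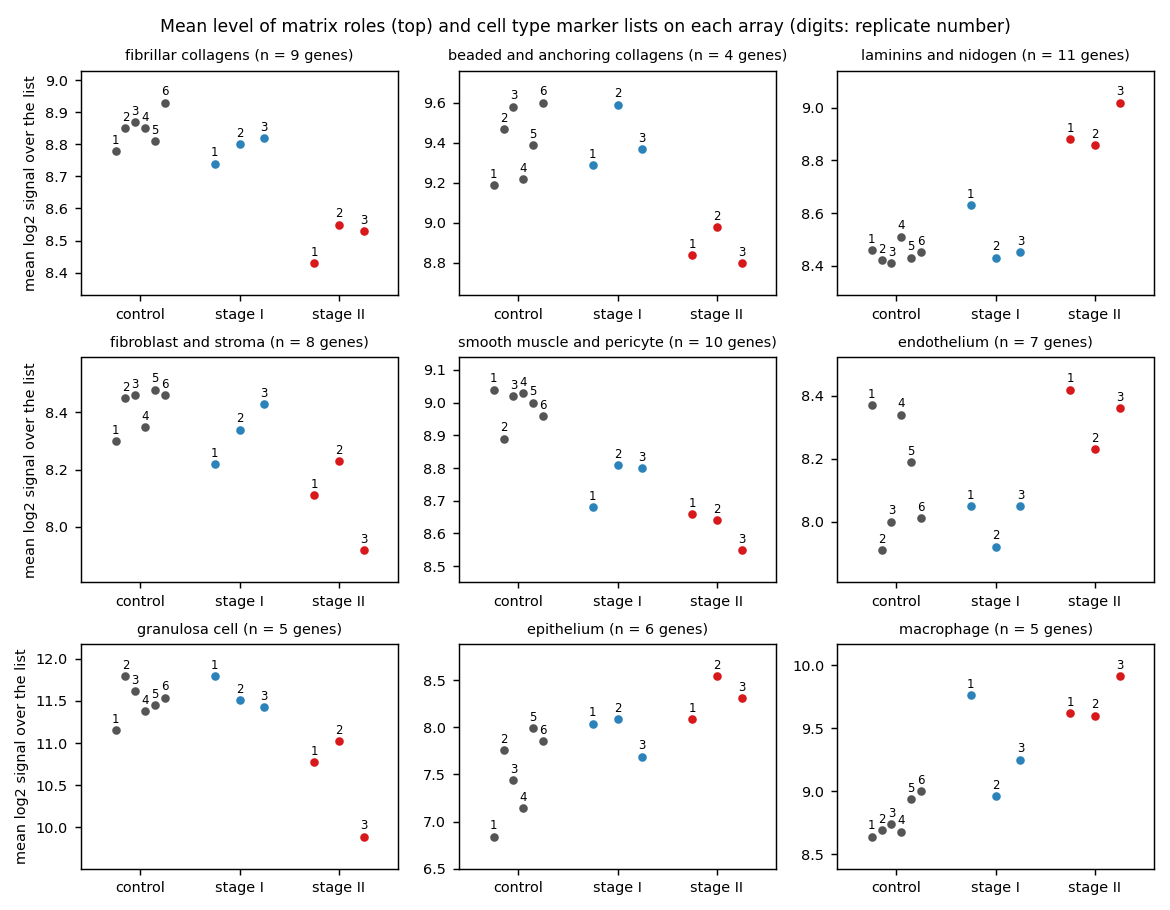
Mean log2 signal on each array of 3 matrix roles (top row) and 6 cell type marker lists, with digits for replicate numbers. Fibrillar and beaded collagens, smooth muscle and granulosa lists lie lowest in stage II, laminins with nidogen lie highest there, and the epithelium, macrophage and endothelial lists overlap or touch between stage II and another group.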

How the data were processed

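RNA of 12 ovaries (6 control, 3 stage I, 3 stage II) was hybridised to Affymetrix mouse arrays, 1 array per bioreplicate. The labels' protocols describe a Trizol extraction, a column cleanup and a biotin label. They also mention Cy3 and Cy5, but the table holds 1 channel. The authors deposited log2 values per probe set, and since how they were summarised and normalized is not given in the sources used here, no further scaling was applied. The log base was read from the range of the values.

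Of 16376 probe sets, 14674 had 1 gene symbol in the platform annotation, 427 several and 1275 none; those with several or none were left out, among them 2 that name a member. No symbol changed when entries were matched to RefSeq (14632 matched). Each of 10949 genes was read from the probe set with the highest mean. Group means were fitted over all 12 arrays with limma 3.58.1 in R 4.3.3 (lmFit, eBayes; 9 residual and 3.13 prior degrees of freedom), with Benjamini-Hochberg adjustment over all genes. The fit was tested on simulated data first. No pair of arrays held identical values. The number of arrays limits the precision, and no detection calls come with the values.

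Members, roles, pathway lists and marker lists were chosen with earlier results of these data known. The genes to be named were, by rule, the called members with the largest differences in each comparison (20 in all), 1 gene for each role, and up to 4 called genes of each pathway list. Other members (Lama2, Lamb1, Nid1, Col1a1, Col4a4, Col4a6, Col14a1 and those not called) and the marker genes were named after their values were seen, as were Agrn, Cd47 and the list genes named for a count without 1 array. Alternatives were another scaling, filter, probe set rule, prior, sample set and replicate block, a floor of 1.5-fold, and each array left out; testing every probe set was added after seeing the data. Promoter windows came from RefSeq, GRCm38.p6.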

Additional observations from a re-analysis of the deposited data

Results flagged for a closer look

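Single control arrays stood apart for 2 of the 61 genes, where chance alone gives about 5% of groups such a gap. Bgn measured 11.50 in control replicate 4, with the next control at 11.33. Eln measured 7.26 in control replicate 1, with the next control at 7.01.

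The effects of the 2 stages against the shared controls differed, by the direct test of stage II against stage I, for 22 genes. On the higher side in stage II the log2 differences were 1.54 for Lama5, 1.09 for Lamb2, 0.68 for Col4a1, 0.63 for Col4a2, 0.58 for Lamc1, 0.58 for Col13a1, 0.47 for Col4a4, 0.45 for Nid1 and 0.44 for Lama3. On the lower side they were -0.95 for Col6a3, -0.71 for Col6a4, -0.65 for Fbn2, -0.62 for Fbln1, -0.56 for Col6a2, -0.55 for Col5a2, -0.52 for Col3a1, -0.50 for Col16a1, -0.49 for Col1a2, -0.48 for Col5a1, -0.42 for Lama2, -0.36 for Col1a1 and -0.33 for Col4a6.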

How the results depend on the processing

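No call reversed under any alternative run, and 0 members were called in stage I under each of them. Against control, 12 members higher and 17 lower became 12 and 18 with quantile normalization and 10 and 10 with the replicate block. Under a floor of 1.5-fold, which asks for more than a difference, they became 5 and 5. Col4a1, Lama5, Lamb2, Lamb3 and Lamc1 stayed among the rises, and Col5a1, Col6a3, Col6a4, Fbn2 and Tnc among the falls. The fibrillar chains Col1a1, Col1a2, Col3a1 and Col5a2 lay under the floor, as did Col4a2, Col4a4, Lama3 and Nid1. Over all genes the share called was 21.0% in the main fit, 23.9% with quantile normalization, 9.96% with the block and 6.33% under the floor. For members it was 47.5%, 49.2%, 32.8% and 16.4%. The block ended the calls of Col14a1, Col4a6, Col6a4, Fbln1, Fbn2, Lama2, Lamb3, Lum and Tnc, of which Fbln1, Fbn2 and Lamb3 had held whichever array was left out. Control replicates 4, 5 and 6 share their number with no stage array, so under the block they added nothing to the differences. The block also left fewer degrees of freedom for the spread. Leaving out 1 array gave 10 to 14 higher and 11 to 17 lower, with 10.5% to 22.2% of all genes called. Without control replicates 1 and 4, 28 were called (24.2% of all genes were), with Tnc, Lum, Col4a6 and Col14a1 lost and Eln, Lamc3 and Thbs3 gained. Against stage I, 9 higher and 13 lower became 5 and 6 with those groups fitted alone (6 fewer arrays). They became 9 and 8 with the replicate block and 4 and 4 under the floor. Leaving out 1 array gave 6 to 12 higher and 8 to 13 lower. Of all genes, 12.5% were called against stage I in the main fit and 3.59% with the groups alone. The share was 5.5% with the block, 4.68% under the floor and 5.53% to 14.7% with 1 array left out. The cause of these moves, beyond fewer arrays, the block's fewer usable controls or a higher floor, was not tested. Deviations from the group means correlated from -0.132 to 0.204 between samples with the same replicate number. Samples with different numbers were not compared, so whether equal numbers mark a shared batch or pairing was not tested. Scaling moved the median of all genes by under 0.1. Leaving out the dimmest 25% of genes kept 53 members and dropped Lamb3. With no record of background, low values such as those of Lamb3, Col9a3 and Col17a1 have only their spread as a guide.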

Other observations

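Control ovaries were not uniform in some of these genes. Control replicates 1 and 4 measured 7.99 and 8.06 for Lama5, where the other controls ran from 7.19 to 7.55, and 11.96 and 12.05 for Tnc, where the others ran from 10.86 to 11.52. Lamc3 measured 7.04 and 7.11 on these arrays and 6.53 to 6.73 on the others. The endothelial marker list averaged 8.37 and 8.34 there and 7.91 to 8.19 on the others, and the epithelial list 6.84 and 7.14 there and 7.44 to 7.99 on the others. These arrays are described after their values were seen and were not tested as a group.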
